A study of Mus musculus with 3 samples.

Results

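The assembly factor genes of the respiratory chain were examined as a group of 42 protein-coding genes, out of 21938 in the annotation, chosen by name for the complex whose assembly they serve. They comprised 14 genes for complex I, 4 for complex II, 6 for complex III, 16 for complex IV and 2 for ATP synthase. A peak was assigned to a gene where it overlapped a promoter window from 2000 bp before to 200 bp after an annotated transcription start, and no measured value was used to choose the genes.

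Assembly factors help to build the respiratory complexes in the inner mitochondrial membrane but are not part of the finished enzymes. They insert heme, copper, flavin and iron-sulfur cofactors, join subunits encoded by the nuclear and mitochondrial genomes, and keep partly built intermediates stable. All are encoded in the nucleus, and loss of many of them in humans causes mitochondrial disease of brain, heart or muscle. Promoters of nuclear genes for mitochondrial proteins often carry sites for the transcription factors NRF-1, ETS family members such as GABP, and YY1.

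The data were ATAC-seq peak lists, which give the regions where a transposase could cut the chromatin, of 4 mouse pre/pro-B-cell lines. Bone marrow cells of C57BL/6 mice homozygous for wildtype Cdk6 (WT) or for the kinase-inactive Cdk6 K43M allele were transduced with a retrovirus for BCR-ABL(p185), so that both genotypes carried the same oncogene, and 2 lines per genotype were profiled. Each list stands for 1 library of 1 line, so the spread within a genotype is that between lines and libraries together. The lists are named WT unnumbered, WT replicate 2, K43M replicate 1 and K43M replicate 2, and values are given in this order. The first carries no sample label and was placed by the text describing the series. That text says that a WT library was reanalysed. The 4 lists held 33038, 34248, 39038 and 34752 peaks. Of 9 B-lineage marker genes, 9, 9, 9 and 7 had a promoter peak, while at most 1 of 5 T and NK cell, 1 of 5 myeloid, 1 of 3 erythroid and 1 of 4 other tissue markers had one in any list.

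Nearly every assembly factor gene had an open promoter in every line. A promoter peak was present in all 4 lists for 41 of the 42 genes (97.6%), against 47.6% of all protein-coding genes. None of the 42 had a peak in both WT lists and neither K43M list, a pattern found in 0.515% of all genes, and none showed the opposite pattern, which was found in 2% of all genes. Among related sets, 79 of 87 genes for subunits of the respiratory chain and ATP synthase (90.8%) and 78 of 78 mitochondrial ribosomal protein genes had a peak in every list. Another 17 assembly and biogenesis genes, among them Tmem70, Taco1 and Pet100, also had one in every list.

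The exception was Sdhaf1, whose product helps to insert iron-sulfur clusters into the complex II subunit Sdhb. None of the 4 lists had a peak in its window. Its only GENCODE transcript starts at position 30323895 of chromosome 7 (GRCm38, minus strand), and the nearest peaks lay 1253, 1259, 1305 and 1301 bp downstream of that position. Those peaks stood at percentiles 90.2, 83.4, 96.7 and 79.8 of their lists, so they were strong in all lines and the genotypes overlapped. The RefSeq transcript of Sdhaf1 starts 1520 bp downstream of the GENCODE start, at position 30322375, within these peaks. Of the 42 genes, 37 could be matched to a RefSeq promoter, and all 37, Sdhaf1 included, had a peak in the 4 lists there. The RefSeq comparison was added after the result for Sdhaf1 was seen. The genes not matched were Ndufaf6, Acad9, Cox17, Cox18 and Coa6.

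The level of each promoter was described by the percentile of its peak within its own list, from 0 for the weakest to 100 for the strongest peak, ordered by the fold enrichment that the authors' peak caller gave. Where a window held several peaks the highest was used, and 35 of the 41 genes (85.4%) had exactly 1 peak in every list, against 67.9% of all 10446 genes with a peak in all lists. The median over the 41 genes of the mean percentile was 86.7, against 79.6 for all genes tested, 86.3 for the subunits and 82.7 for mitochondrial ribosomal proteins. Within the single lists the medians of the assembly factors were 86.5, 86.7, 84.8 and 86.0. A mean percentile above 90 was found for 13 genes (31.7%, against 24.2% of all genes) and one below 50 for 2 genes (4.88%, against 12.5%).

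**Figure D1:**
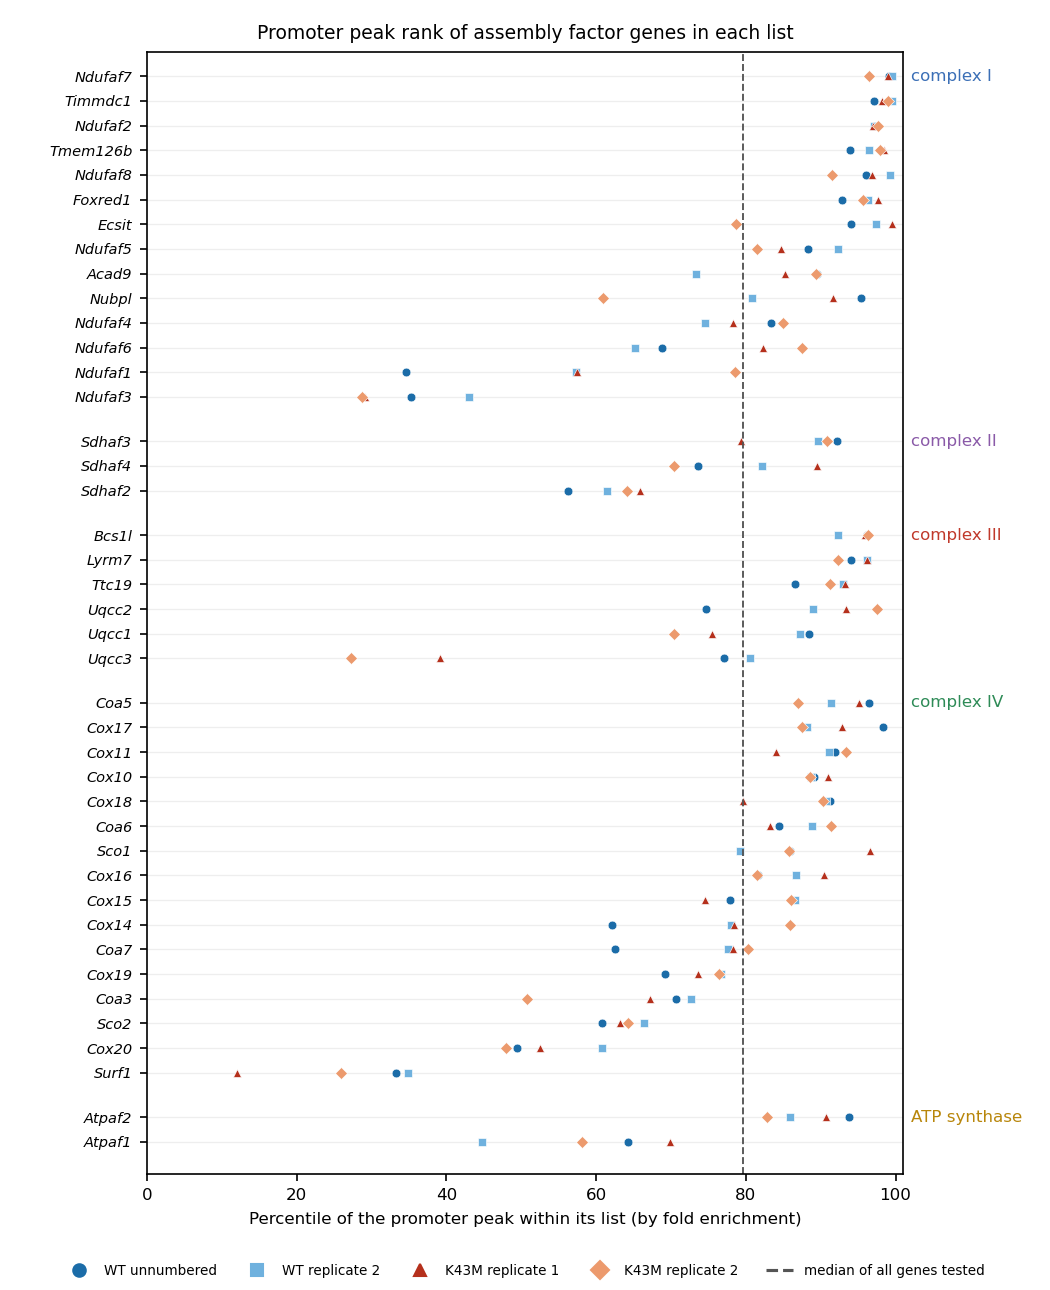
Percentile of the promoter peak within its list (horizontal axis, 0 to 100, by fold enrichment) of the 41 assembly factor genes with a peak in all lists, 1 point per list, grouped by complex and sorted by mean. Most genes lie right of the dashed median of all genes tested (79.6), with Surf1 and Ndufaf3 lowest, and the K43M points of Uqcc3 (39.2 and 27.3) lie far left of its WT points (77.1 and 80.5).

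Of the complex I factors, 7 of 14 had a mean percentile above 90, with a median of 89.6, close to complex III with 3 of 6 and a median of 89.8. Ndufaf7, a methyltransferase, stood at 99.1, 99.5, 99.0 and 96.4. Timmdc1, a membrane protein of the intermediate complex that builds the membrane arm, stood at 97.1, 99.5, 98.2 and 99.0. Ndufaf2, a chaperone of a late intermediate, stood at 97.2, 97.1, 97.0 and 97.6. All 3 were within the top 4 percent of every list, and their genotypes were close together. For Ndufaf2 this was so although the local background at promoters of chromosome 13 was lower in both K43M lists (median log2 ratio to the whole list 0.08, -0.01, -0.36 and -0.47).

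Tmem126b, a partner of Timmdc1, stood at 93.9, 96.5, 98.4 and 97.9, and Ndufaf8, which acts with the hydroxylase Ndufaf5, at 96.1, 99.2, 96.8 and 91.5. Ecsit, Acad9 and Ndufaf1 belong to the same membrane arm intermediate as Timmdc1, yet their mean percentiles spread from 92.4 for Ecsit and 84.4 for Acad9 to 57 for Ndufaf1. The 2 factors of the early matrix arm were weaker. Ndufaf4 had a mean percentile of 80.3, while Ndufaf3 stood at 35.2, 43, 29.1 and 28.8 and was the second lowest of all 41 genes. Ndufaf3 was low in every line, and its K43M values lay below its WT values without passing the test (adjusted p = 0.777, limma).

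For complex II, the highest gene was Sdhaf3, which protects the iron-sulfur subunit, with 92.2, 89.6, 79.4 and 90.8. Sdhaf4 had a mean percentile of 78.9 and Sdhaf2, which is needed to attach flavin to Sdha, one of 61.9. For complex III the highest was Bcs1l, the ATPase that moves the Rieske protein across the inner membrane, with 96.2, 92.3, 95.9 and 96.3. Its partners in the same step, the Rieske chaperone Lyrm7 and Ttc19, which clears Rieske fragments, had means of 94.7 and 91.0. The promoters of the 3 genes of Rieske protein handling thus stood high in all lists, and their genotypes overlapped. The windows of Bcs1l and Ttc19 also held starts of Zfp142 and Zswim7, and their summits lay nearest to another gene. Their ranks therefore cannot be assigned to 1 gene of the pair.

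Complex IV factors ranged most widely, with a median of 83.2. The highest was Coa5 with 96.4, 91.4, 95.2 and 87.0. Of the heme a synthesis enzymes, Cox10 had a mean of 89.4 and Cox15 of 81.3. The factors of copper delivery had means of 91.7 for Cox17, 90.1 for Cox11, 87.0 for Coa6, 86.8 for Sco1, 74.0 for Cox19 and 63.7 for Sco2. Cox20, a chaperone of the subunit Cox2, stood at 49.4, 60.8, 52.5 and 47.9, so it was among the 5 lowest genes in spite of the widest peak of the group. Surf1, which is mutated in a form of Leigh syndrome, was the lowest of all with 33.3, 34.8, 12.1 and 25.9. For ATP synthase, Atpaf2, which binds the alpha subunit, stood at 93.8, 85.9, 90.7 and 82.8, and Atpaf1, which binds the beta subunit, at 64.3, 44.8, 69.9 and 58.1.

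The comparison between genotypes asked whether loss of CDK6 kinase function went with another promoter accessibility of these genes. The percentiles were converted to normal scores and fitted with limma over all 10446 genes, with adjusted p-values (Benjamini-Hochberg) over the same genes. No assembly factor gene passed an adjusted p of 0.05. Of all genes, 0% were called higher in K43M and 0.00957% lower, which is the single gene Dmrt2. At an unadjusted p under 0.05 there were 4 assembly factor genes, Ndufaf6, Uqcc1, Uqcc2 and Uqcc3, against 9.16% of all genes, and this share of 4 in 41 was close to the background. An exact permutation test of 2 lists against 2 cannot give a two-sided p below 0.333, so the fit borrows its estimate of the spread from all genes.

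The median absolute gap over the 41 genes was 5.06 percentile points between the WT lists, 5.32 between the K43M lists and 3.48 between the genotype means. For all genes tested these gaps were 5.59, 5.42 and 4.68. The genotype gap is between means of 2 lists and the others are between single lists. Means vary less, so the gaps are not like for like. The median of the K43M minus WT difference was 0.13 points, against 0.80 for all genes tested. It exceeded 10 points in either direction for 10 of the 41 genes (24.4%, against 22.9% of all genes). Both K43M lists stood above both WT lists for 7 genes, against 24.5% of all genes, and below them for 8 genes, against 15.9%. Every list was also limited to its 33038 peaks with the highest -log10 q of the peak caller. The counts above and below were then 3 and 8 of 40 genes, and the shares of all genes 17.7% and 21.5%. The balance of directions thus depended on how the lists were scaled.

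The difference that stood out was at Uqcc3, whose product stabilises newly made cytochrome b in an early intermediate of complex III. Its peak stood at percentiles 77.1, 80.5, 39.2 and 27.3, a mean of 78.8 ± 2.43 (SD, n = 2) in WT and 33.2 ± 8.44 (SD, n = 2) in K43M. Both K43M values lay below both WT values, and the gap of -45.6 points was several times the distance between lines of a genotype. The fold enrichment at the summit was 9.80, 10.1, 6.02 and 5.28, and the read pileup recovered from the authors' values was 29, 24, 12 and 12. The local background recovered in the same way was 2.06, 1.48, 1.16 and 1.46, so both K43M values lay below both WT values. The values 1.48 and 1.46 were nearly equal. The deposited -log10 q of the peak was 20.9, 18.6, 6.94 and 5.72. At promoters of its chromosome 19 the genotypes overlapped in median local background (log2 ratio to the whole list -0.32, -0.32, -0.34 and -0.17). Whether background contributed to the difference at Uqcc3 was not tested.

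Among all 10446 genes, 13 (0.124%) fell by more than 40 points, Uqcc3 among them, and 10, itself included, fell as far as it did. In the limma fit its score difference was -1.24 ± 0.22 (SE) with an unadjusted p of 0.000389, in position 27 of all genes, and an adjusted p of 0.149. The adjusted p lay between 0.0383 and 0.303 over the other settings. The lowest value came from limiting every list to its 33038 peaks with the highest -log10 q. That was the only setting that called Uqcc3, and 0.0773% of 10344 genes were called lower in K43M there. The gene is short and lies at chr19:8880014-8880923 on the minus strand (GRCm38), its window holds no other protein-coding start, and its peak began between positions 8880699 and 8880784 in the lists and ended between 8881018 and 8881077. Within 50 kb, 8 other protein-coding genes had a promoter peak in all lists, some of them sharing a peak. Their differences lay between 3.43 and 35.4 points, so none of these neighbours was lower in K43M. The neighbours were examined after the value of Uqcc3 was seen.

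The promoter summit of Uqcc3 is shown first because it carries the largest difference, as 151 bases around the median summit (chr19:8880834-8880984, minus strand), and that of Uqcc1 (chr2:155929970-155930120, minus strand) follows as the other complex III factor that was lower in K43M in both lists. The sequences run 5′ to 3′ on the strand of the gene and were read from the GRCm38 genome. Capitals mark exact matches, in either orientation, to the SP1 motif GGGCGGG in Uqcc3 and to the ETS motif CCGGAAG in Uqcc1. Uqcc1 was added after its values were seen.
Uqcc3: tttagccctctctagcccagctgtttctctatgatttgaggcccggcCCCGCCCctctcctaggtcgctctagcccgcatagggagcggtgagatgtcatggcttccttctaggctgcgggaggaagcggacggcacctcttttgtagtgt
Uqcc1: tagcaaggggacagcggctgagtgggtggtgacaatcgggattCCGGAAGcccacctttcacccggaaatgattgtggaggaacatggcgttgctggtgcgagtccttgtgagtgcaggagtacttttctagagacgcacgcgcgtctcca

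Uqcc1 and Uqcc2, which together support synthesis of cytochrome b, had differences of opposite sign. Uqcc1 stood at 88.4, 87.2, 75.5 and 70.4, a difference of -14.8 points. Uqcc2 stood at 74.7, 89.0, 93.4 and 97.5, a difference of 13.6 points. Neither pair of genotypes overlapped, and neither passed the test (adjusted p = 0.496 and 0.488, limma). The cytochrome b factors therefore gave the 3 largest absolute differences among the 6 complex III genes, without a common direction. The 3 Rieske factors differed by at most 2.50 points. None of the 3 cytochrome b factors passed the test with the full lists, and 22.9% of all genes differed by more than 10 points.

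In complex I the largest differences were upward. Ndufaf1 stood at 34.5, 57.3, 57.5 and 78.6, a difference of 22.1 points, but WT replicate 2 and K43M replicate 1 were nearly equal (adjusted p = 0.568, limma). Its fitted score difference of 0.60 was 0.31 without WT unnumbered and 0.30 without K43M replicate 2. Ndufaf6 stood at 68.9, 65.2, 82.2 and 87.6, a difference of 17.9 points that was larger than the gap between lines (adjusted p = 0.475, limma). Nubpl, which delivers iron-sulfur clusters to complex I, stood at 95.4, 80.8, 91.7 and 60.9. Its difference of -11.8 points rested on K43M replicate 2. The recovered summit pileup of Nubpl was 45, 32, 38 and 15, and its recovered local background 2.50, 2.26, 2.18 and 1.12, so both were lowest in that list.

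In complex IV, Cox14 and Coa3, which both act on the newly made subunit Cox1, had differences of opposite sign, each resting largely on 1 list. Cox14 stood at 62.2, 78.0, 78.5 and 86.0, a difference of 12.2 points, and Coa3 at 70.7, 72.6, 67.2 and 50.7, a difference of -12.7 points. The fitted score difference of Cox14 was 0.39, and 0.16 without WT unnumbered, while that of Coa3 was -0.34, and -0.13 without K43M replicate 2. Surf1 differed by -15.0 points and its genotypes did not overlap, but its K43M lists lay almost as far apart from each other, and its fitted score difference of -0.50 was -0.23 without K43M replicate 1. Atpaf1 differed by 9.42 points and its genotypes overlapped. None of these 4 passed the test, with adjusted p-values of 0.654, 0.672, 0.673 and 0.794 (limma).

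**Figure D2:**
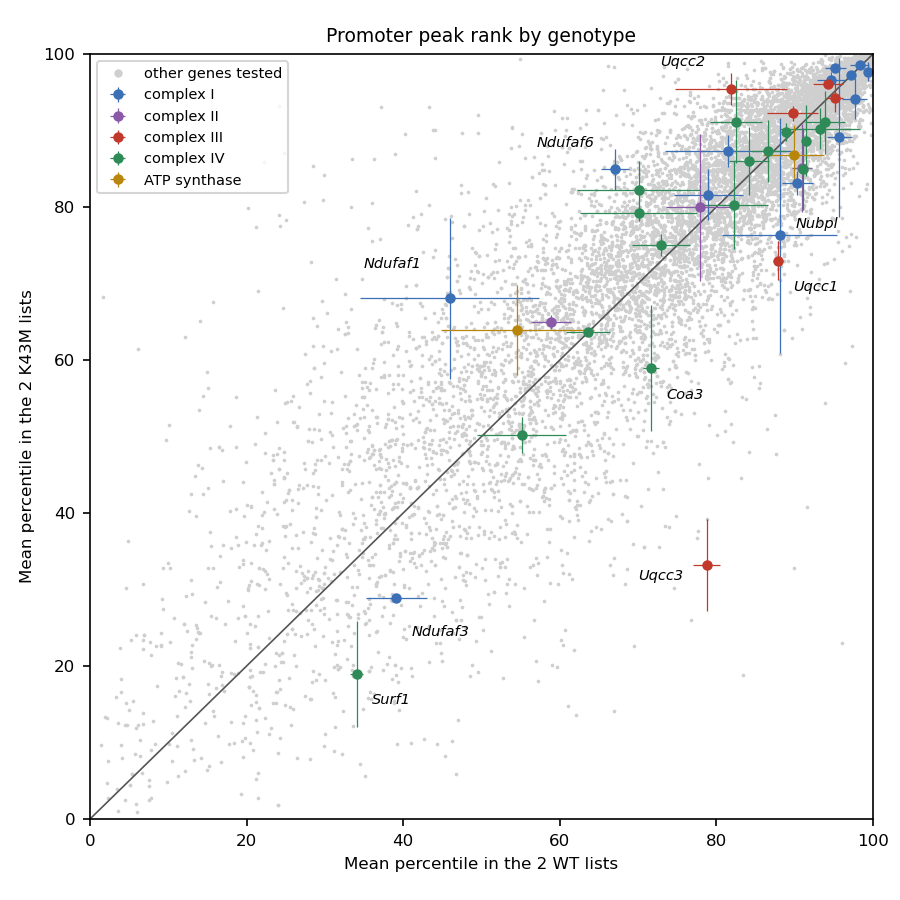
Mean percentile of the promoter peak in the 2 WT lists (horizontal axis) and in the 2 K43M lists (vertical axis), with bars to the single lists for the 41 assembly factor genes, coloured by complex, and grey points for the other genes tested. Most assembly factors lie near the diagonal of equal rank, and Uqcc3 lies farthest below it with means of 78.8 and 33.2.

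Peak width gave a similar picture. The mean width had a median of 897.5 bp over the 41 genes, against 832 bp for all genes tested. No assembly factor gene passed an adjusted p of 0.05 in the limma fit of log2 width, nor did any of all genes (0%). At an unadjusted p under 0.05 there were 2 assembly factors, against 6.22% of all genes. Ndufaf7 measured 771, 787, 1074 and 930 bp and was wider in both K43M lists (adjusted p = 0.802, limma). Foxred1, an oxidoreductase-like factor of complex I, measured 1066, 1089, 706 and 772 bp and was narrower in both (log2 difference -0.55 ± 0.12, SE; adjusted p = 0.520, limma). The median difference over the group was -38.5 bp, against -16 bp for all genes. It was -8.5 bp without WT unnumbered and 13 bp without K43M replicate 2, so its size and sign depended on single lists.

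Width and rank did not go together for every gene. The widest peaks belonged to complex IV factors. Cox20 measured 1422, 1470, 1497 and 1451 bp, Cox19 1512, 906, 1485 and 1532 bp, and Cox11 1303, 1239, 1252 and 1029 bp. Cox20 combined the widest peak with a low rank, while Cox11 was both wide and high. The narrowest was Uqcc3 with 308, 379, 315 and 235 bp, followed by Surf1 with 409, 303, 539 and 523 bp and Nubpl with 528, 512, 480 and 344 bp. The genotypes overlapped for Uqcc3 in width, in contrast to its rank, whereas Surf1 was wider in both K43M lists where its rank was lower (adjusted p = 0.850 for width, limma).

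**Figure D3:**
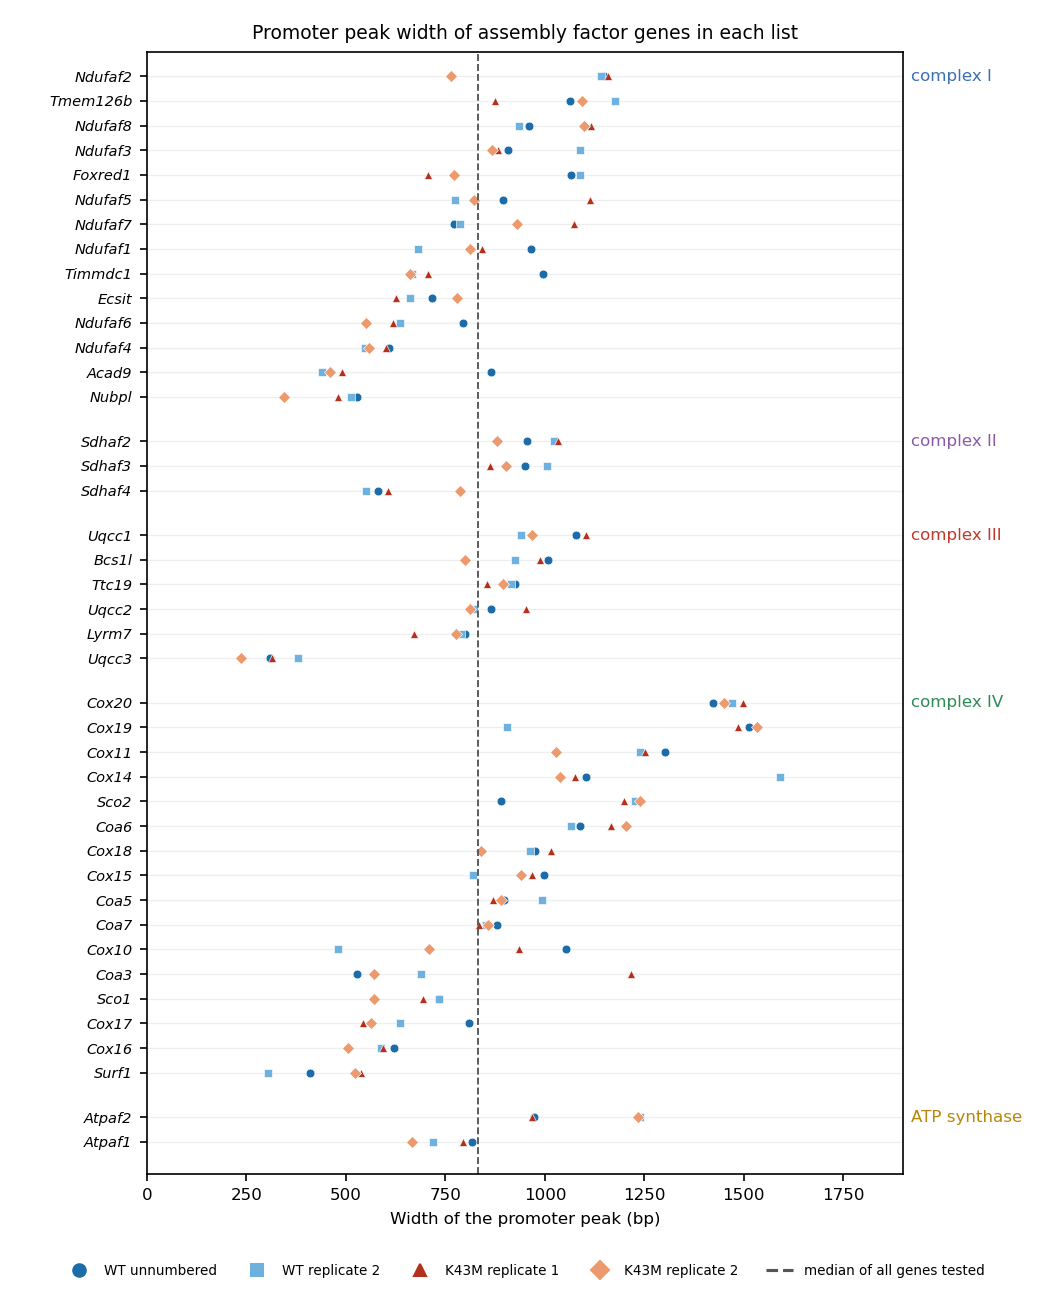
Width of the promoter peak in bp (horizontal axis) of the same 41 genes, 1 point per list, grouped by complex and sorted by mean, with the median of all genes tested (832 bp) as a dashed line. Cox20 is widest (mean 1460 bp) and Uqcc3 narrowest (mean 309 bp).

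The peaks sat close to the transcription starts. The median summit of the lists lay within 100 bp of an annotated start for 33 of the 41 genes (80.5%, against 70.7% of all genes tested) and within 200 bp for 40 (97.6%, against 84.8%). It lay upstream for 36 genes (87.8%, against 79.9%). Among the subunits and mitochondrial ribosomal proteins it lay within 100 bp for 83.5% and 82.1%, and within 200 bp for 88.6% and 92.3%. The assembly factor beyond 200 bp was the copper chaperone Sco2, whose summit lay 262.5 bp downstream. Between lists the summit of a gene moved over a median range of 46 bp, against 55 bp for all genes.

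Many of these promoters faced another gene. The window of 18 of the 42 genes (42.9%) held the start of another protein-coding gene, against 15.1% of all protein-coding genes, and for 17 of them (40.5%, against 12.1%) the nearest such start was on the opposite strand. The subunit genes (40.2%) and mitochondrial ribosomal protein genes (46.2%) had similar shares of windows with another start. The closest pairs included Cox15 with Cutc, 4 bp apart, Coa3 with Cntd1, 18 bp apart, Surf1 with Surf2, 22 bp apart, and Bcs1l with Zfp142, 43 bp apart. Ndufaf7 faced Cebpz over 70 bp and Ndufaf2 faced Ercc8 over 108 bp, so the high rank of these promoters cannot be assigned to 1 gene of the pair. The summit was nearest to a start of the assembly factor itself in 32 of 41 genes, and nearest to another gene for Ndufaf2, Ndufaf8, Sdhaf2, Bcs1l, Ttc19, Cox15, Sco1, Coa3 and Atpaf2. Among the 10 genes with the largest genotype differences in each direction, 5 upward and 5 downward, only Surf1 and Coa3 had another start in the window.

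Sequence composition was that of CpG-rich promoters. Within 150 bp of the median summit the ratio of observed to expected CpG exceeded 0.6 for 40 of 41 genes (97.6%, against 82.3% of all genes tested), with Ndufaf3 as the exception, and the median GC content was 62.5%, against 64.5%. The share above 0.6 was 91.1% among the subunits and 94.9% among mitochondrial ribosomal proteins. In the same 300 bp, 7 short motifs were searched as exact letters on both strands, and no motif contains the letters of another. A match is a description of the sequence and does not show that the factor was bound. The lack of an exact match does not show that it was not bound.

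The ETS motif CCGGAAG was found for 19 of the 41 genes (46.3%), against 23.2% of all genes tested. The share was 46.2% among mitochondrial ribosomal proteins and 26.6% among the subunits. The 19 genes were spread over complexes I to IV and included 10 of the 16 complex IV factors, but neither ATP synthase factor. The NRF-1 motif GCGCATGC was found for 4 genes (9.76%, against 6.31%), which were Ndufaf4, Ndufaf5, Ttc19 and Cox18. The YY1 motif AAGATGGC was found for 5 genes (12.2%, against 6.35%), which were Ndufaf8, Cox10, Cox20, Surf1 and Atpaf2. At least 1 of these 3 motifs was present in 24 genes (58.5%, against 32.4% of all genes tested). This share was 57.7% among mitochondrial ribosomal proteins, 46.8% among the subunits and 70.6% among the 17 other assembly genes. The NRF-1 and YY1 motifs were found for 13.9% and 16.5% of the subunits and 7.69% and 15.4% of the mitochondrial ribosomal proteins.

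The other motifs were about as frequent as elsewhere or rare. SP1 (GGGCGGG) was found for 21 genes (51.2%, against 53.3%) and NFY (CCAAT) for 16 (39.0%, against 4177 of all 10446 genes). CREB (TGACGTCA) was found for Nubpl and Ttc19 (4.88%, against 4.09%) and ERR (AAGGTCA) for Cox17 and Cox18 (4.88%, against 2.12%). Motifs were also listed for the 5 genes with the largest genotype differences in each direction. Of these 10 genes, 4 had an ETS match, alone in Ndufaf1, with SP1 in Uqcc1, with YY1 in Surf1 and with NFY in Cox14. Uqcc3 had an SP1 match alone, Ndufaf6 and Coa3 an NFY match alone, and Nubpl SP1, NFY and CREB matches. Uqcc2 and Atpaf1 had none of the 7 motifs, so no motif was common to these 10 genes.

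**Figure D4:**
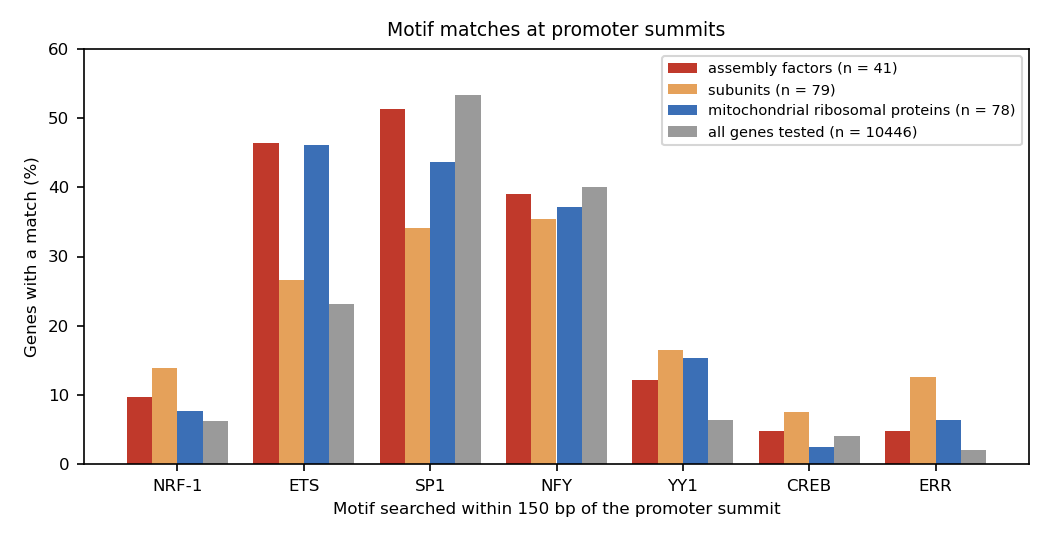
Share of genes with an exact match within 150 bp of the promoter summit (vertical axis, percent) for 7 motifs in 41 assembly factor, 79 subunit, 78 mitochondrial ribosomal protein and all 10446 genes tested. The ETS bar of the assembly factors (46.3%) is close to that of the ribosomal proteins (46.2%) and above those of the subunits (26.6%) and of all genes (23.2%).

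The NRF-1 matches are shown because the study examined NRF-1 as a regulator of genes for mitochondrial proteins. The study used enriched motifs in open regions bound by CDK6 and NRF-1 binding peaks from a public dataset. Exact letters are a different measure. The windows hold 201 bases around the median summit, in capitals at each match in either orientation, and are given in order of rank for Ttc19 (chr11:62281306-62281506, plus strand), Ndufaf5 (chr2:140170517-140170717, plus strand) and Ndufaf4 (chr4:24897943-24898143, plus strand), from GRCm38. In Cox18 the match lay 112 bp from the summit and so outside such a window. In Ndufaf5 and at 1 position in Ndufaf4 the letters read as GCGCATGC on both strands and overlap in a run of 10 bases.
Ttc19: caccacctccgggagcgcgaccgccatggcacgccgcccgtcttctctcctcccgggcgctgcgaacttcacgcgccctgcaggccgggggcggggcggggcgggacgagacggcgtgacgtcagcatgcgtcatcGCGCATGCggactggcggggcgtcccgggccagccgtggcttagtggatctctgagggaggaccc
Ndufaf5: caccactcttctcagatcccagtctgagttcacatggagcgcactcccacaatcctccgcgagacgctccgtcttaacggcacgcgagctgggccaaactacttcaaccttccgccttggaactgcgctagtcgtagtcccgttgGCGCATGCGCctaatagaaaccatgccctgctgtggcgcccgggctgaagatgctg
Ndufaf4: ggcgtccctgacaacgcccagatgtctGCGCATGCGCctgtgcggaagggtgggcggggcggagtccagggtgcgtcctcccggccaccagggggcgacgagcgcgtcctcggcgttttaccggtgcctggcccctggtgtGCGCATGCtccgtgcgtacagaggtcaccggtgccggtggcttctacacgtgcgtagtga

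Of the 4 genes with an NRF-1 match, none passed the test and 2 stood lower in both K43M lists, against 15.9% of all genes tested. Ttc19 stood at 86.5, 93.0, 93.2 and 91.3 and Ndufaf4 at 83.4, 74.5, 78.3 and 84.9, with overlapping genotypes. Ndufaf5, at 88.3, 92.3, 84.8 and 81.5, and Cox18, at 91.3, 90.7, 79.7 and 90.3, were the genes lower in both K43M lists, with differences of -7.19 and -5.99 points (adjusted p = 0.671 and 0.765, limma).

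For ETS, the highest and the lowest gene with the motif are shown, Timmdc1 (chr16:38522620-38522770, minus strand) and Surf1 (chr2:26916272-26916422, minus strand), chosen after their values were seen. Capitals mark CCGGAAG in either orientation and, in Surf1, also the YY1 motif AAGATGGC.
Timmdc1: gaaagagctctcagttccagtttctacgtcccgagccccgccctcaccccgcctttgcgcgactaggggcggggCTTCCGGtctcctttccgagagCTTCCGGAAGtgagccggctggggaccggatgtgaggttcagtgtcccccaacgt
Surf1: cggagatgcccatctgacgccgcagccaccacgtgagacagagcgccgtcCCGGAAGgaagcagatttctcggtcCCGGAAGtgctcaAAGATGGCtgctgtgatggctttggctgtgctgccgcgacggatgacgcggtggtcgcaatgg

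Timmdc1 had 4 ETS matches within 150 bp of its summit, counted over both strands, and Surf1 had 2. Their mean percentiles were 98.4 and 26.5. Both were chosen for their rank, and the ranks of genes with and without the motif were not compared.

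The 17 other assembly and biogenesis genes gave a further view of the pathway. Their median mean percentile was 85.0 and the median K43M minus WT difference 1.64 points. None passed an adjusted p of 0.05 in the limma fit and 1 had an unadjusted p under 0.05, in the upward direction. The subunit genes gave 0 calls and 5 genes at an unadjusted p under 0.05, and the mitochondrial ribosomal protein genes 0 and 8.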

How the data were processed

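ATAC-seq peak lists of 4 lines were used, 2 per genotype. The submitters' processing notes name Trimmomatic 0.36, BWA 0.7.15, SAMtools 1.3.1 and MACS2 2.1.0 and the mm10 build. The authors called peaks per library, and replicates were not pooled. The deposited ratio is the authors' fold enrichment at the summit over the background of the same library. The deposited -log10 p and -log10 q are MACS2 values within each list. The lists give no read totals, so depth was judged from the summit pileup, recovered by the Poisson model for 100% of the peaks, with medians of 26, 23, 23 and 22.

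Promoter windows used all transcripts of GENCODE mouse release 21 (GRCm38), later than the release the authors used, with 1 bp of overlap. Percentiles were ranks within a list divided by its number of peaks. Their normal scores, and log2 widths, were fitted with limma 3.58.1 (R 4.3.3, moderated with a trend, Benjamini-Hochberg, threshold 0.05) on 10446 genes. The study's methods treat the libraries of a genotype as biological replicates. The p-values measure the spread between these lines, each with 1 library. The code was tested on simulated data. Replicate numbers mark lines. Genes given with all their values were the 5 highest and 5 lowest by rank, the 5 with the largest differences in each direction, the 3 widest and 3 narrowest, the highest of each complex, and any gene without a peak or called. The gene group, the lists and the tests were chosen with earlier results of these data known. Of 18 other assembly genes listed, 17 were found in the annotation. Alternatives changed the window, the peak threshold, the number of peaks, the ranking column, the peak chosen, the genes fitted, the variance model, the distance to the summit and the lists included.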

Additional observations from a re-analysis of the deposited data

How the results depend on the processing

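With equal numbers of peaks per list, 1 assembly factor gene (Uqcc3) was called in the rank fit instead of 0. Surf1 lost its peak in a K43M list. In that setting 3 genes instead of 7 stood higher in both K43M lists, against 17.7% instead of 24.5% of all genes. Ranking only among the genes tested gave 4 genes higher in both and 9 lower in both, against 19.8% and 20.2% of all genes. The median K43M minus WT difference of 0.13 points was -0.67 with equal numbers of peaks, -1.18 when ranked among the genes tested and 0.84 by recovered pileup, and lay between -0.96 (without WT unnumbered) and 0.86 (without K43M replicate 2) when 1 list was left out, so it has no stable sign. The median mean percentile of 86.7 was 84.8 with -log10 q of 5 or more, 85.9 with equal numbers of peaks, 85.7 ranked by -log10 q and 83.2 by recovered pileup, and lay between 84.1 (without K43M replicate 1) and 86.3 without 1 list. Within 100 bp of the summit 3 instead of 5 genes had the YY1 motif. The fitted score difference of Nubpl lay between -1.0 and 0.11 (without K43M replicate 2) and that of Atpaf1 between -0.0044 (without WT replicate 2) and 0.49 when 1 list was left out. The number of all genes called in the rank fit was 1, and 0 with -log10 q of 5 or more or without a variance trend, 3 with the peak nearest to a start, 11 ranked among the genes tested, 26 with equal numbers of peaks, 83 by -log10 q, 110 with genes in at least 1 list, 133 by recovered pileup, and between 0 and 6 without 1 list (6 without WT unnumbered). No assembly factor was among them except Uqcc3 as given. The causes were not tested. The ranking by recovered pileup and the RefSeq promoters were added after the data were seen. No paired analysis was possible because the genotypes share only replicate number 2 and the numbers mark lines. With 2 lines per genotype, line and genotype effects can be told apart only through the spread shared over genes.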
